A study of Mus musculus with 6 samples.

Results

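The muscle miRNA genes studied here are Mir1a-1, Mir1a-2, Mir1b, Mir133a-1, Mir133a-2, Mir133b and Mir206. They were chosen by gene name, and all 7 were found among the 30638 features (2207 of them miRNAs) of the small RNA count tables. The tables cover hearts of 6 C57BL/6 mice. The 3 control mice (titled L/L, genotype given as Elac2 +/+) carry a floxed Elac2 exon without cre, and the 3 knockout mice (L/L, cre, given as Elac2 -/-) carry the same allele with cre under a muscle creatine kinase promoter. That promoter acts in striated muscle cells, so cre is not driven in the other cell types of the whole heart, and no age is stated for the mice. Each heart was sequenced with technical replicates, and the p-values below measure the spread between mice. Elac2 encodes RNase Z, the endonuclease that removes 3′ trailers from precursor tRNAs, and the comparison asks how its loss changes small non-coding RNAs, read from inserts of 15 to 100 nt.

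MicroRNAs are cut from hairpin transcripts by Drosha and Dicer and guide Argonaute to target mRNAs mainly through their seed, the bases near the 5′ end. miR-1 and miR-133 are transcribed together from bicistronic genes in striated muscle and are known in the heart for restraining growth and smooth muscle genes, with miR-1 promoting differentiation. The 3p arm of miR-206 is known to share its seed with the 3p arm of miR-1, and miR-206 is known from skeletal muscle, where its gene lies beside that of miR-133b.

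The genes lie in 3 clusters of GRCm38 (mm10; positions and strands from GENCODE M21). On chromosome 2, Mir1a-1 (ENSMUSG00000070144.1, 180389048 to 180389124, plus strand) and Mir133a-2 (ENSMUSG00000065460.1, 180398379 to 180398482, plus strand) are 9254 bases apart, and neither overlaps an annotated exon of another gene. On chromosome 18, Mir133a-1 (ENSMUSG00000065399.2, 10782909 to 10782976, minus strand) and Mir1a-2 (ENSMUSG00000106348.1, 10785481 to 10785552, minus strand) are 2504 bases apart. Both sit in the intron of the antisense transcript Mir133a-1hg and inside Mib1 on the other strand. Mir1b (ENSMUSG00000080662.1, 10785446 to 10785567, plus strand) covers Mir1a-2 on the opposite strand. On chromosome 1, Mir206 (ENSMUSG00000065559.1, 20679010 to 20679082, plus strand) and Mir133b (ENSMUSG00000065480.1, 20682769 to 20682887, plus strand) are 3686 bases apart. Exons of the lincRNA Gm28653, on the same strand, cover 82.2% of Mir206 and 100% of Mir133b.

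**Figure D1:**
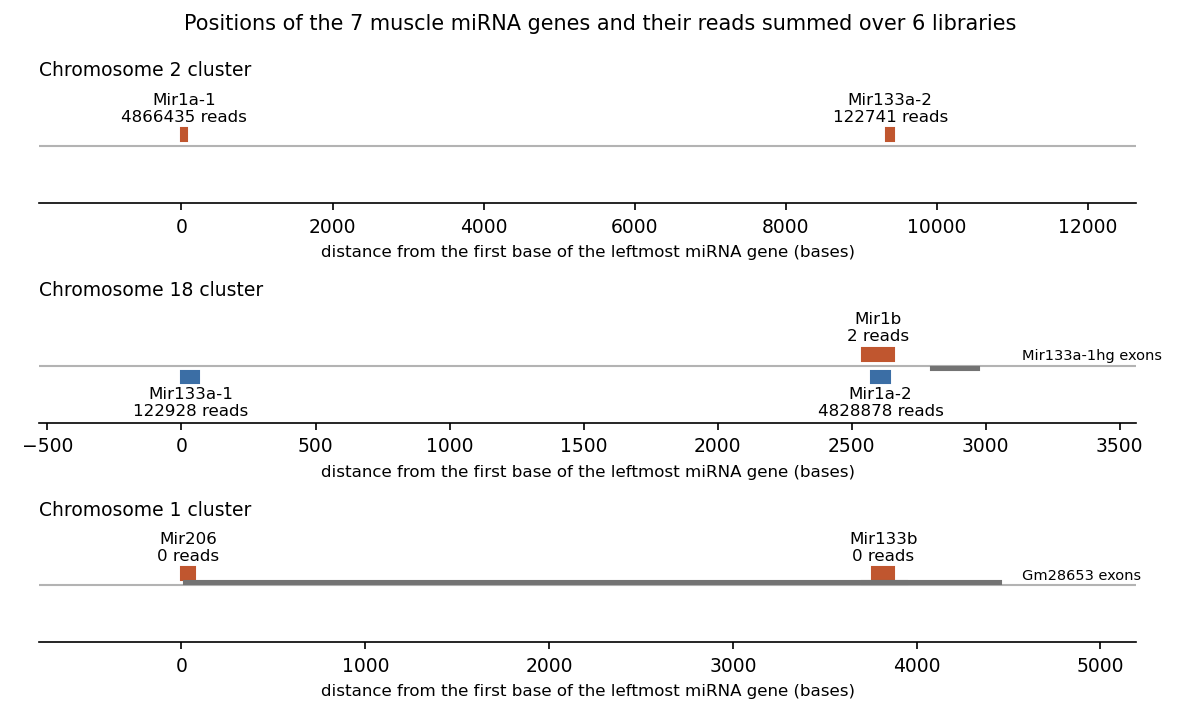
Maps of the chromosome 2, 18 and 1 clusters, with distance in bases from the first base of the leftmost miRNA gene; boxes above the line are on the plus strand, boxes below it on the minus strand, and grey bars are exons of the named host transcript within the window. The labels give raw reads summed over 6 libraries, from 4866435 for Mir1a-1 to 0 for Mir206 and Mir133b.

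Of the 7 genes, 3 had mature sequences in the RefSeq table used here (GRCm38.p6): Mir1a-1 (5p arm), Mir133b and Mir206. The 5p arms of miR-1a-1 and miR-206 are shown for comparison with each other, and both arms of miR-206 and miR-133b as the products of the chromosome 1 pair, with the seed (bases 2 to 8) in capitals.
miR-1a-1-5p: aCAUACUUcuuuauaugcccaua
miR-206-5p: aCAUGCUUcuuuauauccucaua
miR-206-3p: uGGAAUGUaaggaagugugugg
miR-133b-5p: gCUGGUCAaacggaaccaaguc
miR-133b-3p: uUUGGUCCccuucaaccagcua
Counted from the 5′ end, the 5p arm miR-206-5p differs from miR-1a-1-5p at 3 of 23 positions (A5G, G17C and C19U), the first of them inside the seed. On the plus strand of GRCm38 the 5 arms lie, in the order shown, at chr2:180389057-180389079, chr1:20679017-20679039, chr1:20679055-20679076, chr1:20682797-20682818 and chr1:20682834-20682855. The deposited counts are per gene, so reads of the 5p and 3p arms cannot be told apart in them.

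Total counts per library lay between 13510061 and 16248673, and the miRNA share of them was 39.5% to 43.4% in control and 29.2% to 33.3% in knockout hearts. Knockout libraries also had 2995 to 3160 features with counts, against 4664 to 6018 in control libraries. Fold changes of single genes depend on the library scaling, and their values under 6 scalings follow below. The heart's own defining miRNAs were present (Mir208a and Mir499, encoded in myosin gene introns), and liver Mir122 averaged 1.24 CPM in control hearts. A list of neuron miRNAs, also planned as an absence check, summed to 40.7 to 49.8 CPM in control libraries, where Mir208a averaged 55.4 CPM. Levels of Elac2 mRNA are not analysed here, and the genotype labels were taken as given.

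The miR-1a copies held 30.0% to 37.0% of all miRNA counts in control hearts and 22.7% to 24.0% in knockout hearts. Its 2 genes, Mir1a-1 and Mir1a-2, held the 2 highest miRNA levels in control hearts. They were read 1.49 and 1.53 times less in knockout hearts by edgeR's quasi-likelihood test, after TMM scaling of the libraries. The miR-133a genes Mir133a-1 and Mir133a-2 gave 1.94% to 3.16% of the reads of their cluster partners, and their groups overlapped. With factors from snRNA and rRNA genes, which moved all features by a median of 0.55, the log2 fold changes were 0.0011 for Mir1a-1, -0.04 for Mir1a-2, 0.14 for Mir133a-1 and 0.15 for Mir133a-2, and 0 of these were called. Mir206, Mir133b and Mir1b gave 0, 0 and 2 reads in all. Of the 7 genes, 4 passed the filter on low counts and were tested, and 2 of these were called lower (adjusted p under 0.05) and 0 higher. Over all 1144 features tested 50.2% were called, 27% lower, and over 312 miRNA features 23.4% were called, 6.41% lower and 17% higher.

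Raw reads of Mir1a-1 were 871603, 1284892 and 1056004 in control replicates 1 to 3. The knockout replicates, in the same order, had 485403, 564170 and 604363 reads. After scaling these were 56663, 72377 and 57704 CPM (the count relative to the TMM-scaled library size) against 35262, 44634 and 45485 CPM. Every knockout library lay below every control library. Groups did not overlap for 63% of all features tested, and 33.7% of all features tested were without overlap and lower. The same shares of the 312 miRNA features tested were 41.7% and 12.8%. The means were 62248 ± 8787 and 41794 ± 5672 CPM (SD, n = 3), and the log2 fold change of -0.57 (SE 0.14) had an adjusted p of 0.0042 by edgeR.

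Its copy Mir1a-2 had 57550, 69946 and 59566 CPM in control and 34429, 43471 and 44284 CPM in knockout hearts, again without overlap. Its means were 62354 ± 6652 and 40728 ± 5470 CPM (SD, n = 3), and the log2 fold change was -0.61 (SE 0.13), with an adjusted p of 0.00183 by edgeR. Both genes are known to yield the same mature miR-1a, and the assignment of reads that align to both is not stated, so the gene-level values are uncertain and are not 2 independent measurements. Mir1a-1 held 49.2% to 50.9% of the reads of the pair in the 6 libraries. The 95% Wilson intervals, which cover counting error only, excluded an equal split of 50% in all 6, for example 50.5% to 50.7% in knockout replicate 1. The log2 ratio of Mir1a-2 to Mir1a-1 was 0.01 ± 0.05 in control and -0.04 ± 0.0022 in knockout hearts (SD, n = 3, exact two-sided permutation p = 0.4).

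A sum of both copies of a family does not depend on how reads were split between them, provided that each read was counted at 1 copy only. The counting of reads that align to both copies is not stated, and reads counted at both would enter the sum 2 times. The whole table was refitted with the sums. The sum was 124649 ± 15427 CPM in control and 82485 ± 11082 CPM in knockout hearts (SD, n = 3), a log2 fold change of -0.60 (SE 0.13; 95% interval -0.88 to -0.32, adjusted p = 0.00203 by edgeR). The call was lost when knockout replicate 1 (-0.25, adjusted p = 0.282), 2 (-0.38, adjusted p = 0.145) or 3 (-0.46, adjusted p = 0.0789) was left out. In those fits the log2 fold changes over all features moved by medians of 0.21, 0.24 and 0.22.

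**Figure D2:**
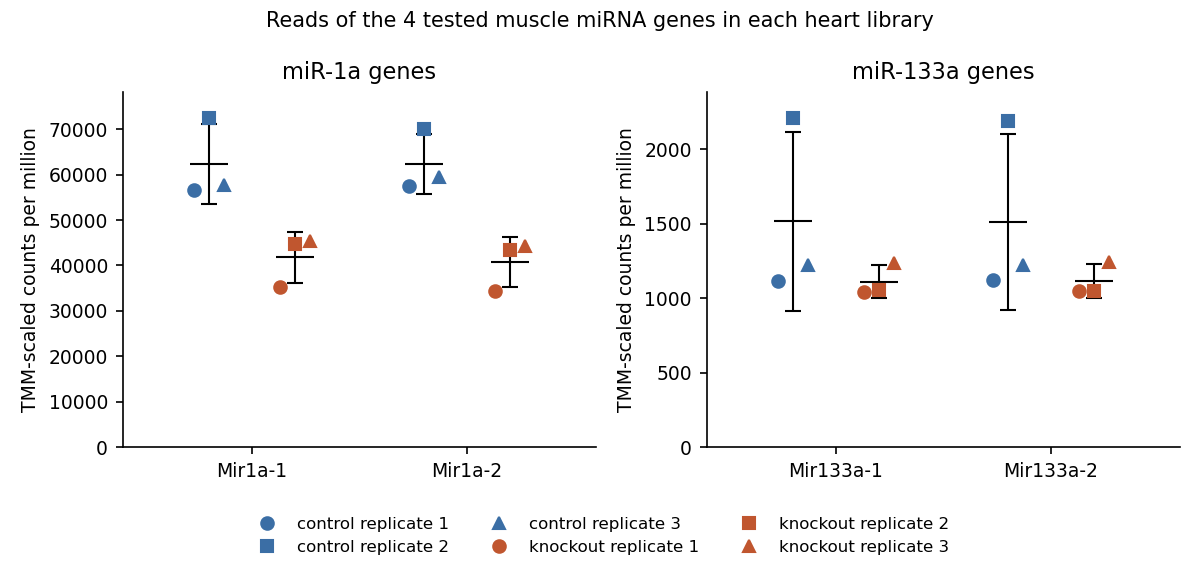
TMM-scaled CPM (y axis, from 0) of the 4 tested genes, 1 point per heart library, with the group mean and SD (n = 3) as black bars. The knockout libraries of Mir1a-1 and Mir1a-2 lie below all control libraries, while those of Mir133a-1 and Mir133a-2 lie close to control replicates 1 and 3, with control replicate 2 highest.

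For Mir133a-1 the levels were 1118, 2208 and 1223 CPM in the control hearts, in order of replicate, against 1045, 1054 and 1238 CPM in the knockout hearts. Control replicate 2 stood above the other 5 libraries, and knockout replicate 3 lay above control replicates 1 and 3, so the groups overlapped. Its means were 1516 ± 602 and 1112 ± 109 CPM (SD, n = 3), and its log2 fold change of -0.45 (SE 0.24) had an adjusted p of 0.141 by edgeR.

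Mir133a-2 gave nearly the same values, 1124, 2189 and 1221 CPM in control and 1047, 1051 and 1245 CPM in knockout hearts, where the log2 fold change of -0.44 (SE 0.24) had an adjusted p of 0.143 by edgeR. Mir133a-1 held 49.9% to 50.2% of the reads of this pair, and the Wilson intervals contained an equal split in each of the 6 libraries. As a sum, the miR-133a copies had 3029 ± 1191 CPM in control and 2226 ± 219 CPM in knockout hearts (SD, n = 3). The log2 fold change of the sum was -0.44 (SE 0.23; 95% interval -0.96 to 0.07), with an adjusted p of 0.133 by edgeR. Single hearts moved this value: without control replicate 1 it was -0.55 and called (adjusted p = 0.0188), and without control replicate 2 it was -0.11 (adjusted p = 0.54). Without knockout replicate 1 or 2 it was -0.14 and -0.12.

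Compared per length of annotated hairpin, the order of control levels was Mir1a-2 (86603 ± 9239 CPM per 100 nt; SD, n = 3), Mir1a-1 (80842 ± 11412), Mir133a-1 (2230 ± 885) and Mir133a-2 (1453 ± 566). Within each of the 6 libraries, Mir1a-2 was 1.034 to 1.104 times Mir1a-1 per length, and Mir133a-1 was 1.52 to 1.54 times Mir133a-2. The annotated hairpins are 72, 77, 68 and 104 nt long in that order, and within a family the CPM were nearly equal. Between libraries, the SDs of the copies of a family overlapped in control hearts. Both miR-1a genes stood far above both miR-133a genes. The order in knockout hearts was the same, with 56567 ± 7597 and 54278 ± 7367 CPM per 100 nt for Mir1a-2 and Mir1a-1, and 1636 ± 160 and 1072 ± 109 for Mir133a-1 and Mir133a-2. Since reads come mostly from mature arms, the hairpin length does not measure how much of each gene is read.

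Shares of the miRNA counts need no scaling between libraries. How reads that align to both copies were counted is not stated, and reads counted at both would raise these shares. The miR-1a copies held 30.0%, 37.0% and 34.1% of miRNA counts in the control hearts, in order of replicate, against 22.7%, 23.1% and 24.0% in the knockout hearts. The groups did not overlap, with means of 33.7% ± 3.55 and 23.2% ± 0.655 (SD, n = 3; exact two-sided permutation p = 0.1, the smallest that 3 against 3 can give). The control libraries were spread more widely than the knockout ones. The miR-133a copies held 0.588%, 1.144% and 0.711% against 0.681%, 0.551% and 0.662%, which overlapped (exact permutation p = 0.4, n = 3 per group). All 7 genes together held 34.5% ± 3.82 of miRNA counts in control and 23.9% ± 0.664 in knockout hearts (exact permutation p = 0.1, n = 3 per group). Taken over all counts of a library, the share of the 7 was 14.3% ± 1.48 against 7.49% ± 0.695.

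The partners of a cluster are known to share a primary transcript, and their ratio is also free of scaling. Reads of Mir133a-2 came to 1.98%, 3.02% and 2.12% of those of Mir1a-1 in control and 2.97%, 2.35% and 2.74% in knockout hearts. The groups overlapped, and the log2 ratio differed by 0.20 between them (exact two-sided permutation p = 0.4, adjusted p = 0.533 over 4 ratios). For Mir133a-1 over Mir1a-2 the percentages were 1.94%, 3.16% and 2.05% against 3.04%, 2.42% and 2.80%, a log2 difference of 0.24 (exact permutation p = 0.4, adjusted p = 0.533, n = 3 per group). The copies of a family are known to give the same mature miRNA, and how shared reads were assigned is not stated. These 2 ratios are therefore not independent and do not separate the 2 clusters. Control replicate 2 was highest in both ratios. Without it the log2 differences were 0.38 and 0.46, and without control replicate 1 they were 0.08 and 0.11, the ends of the range over the 6 omissions. The ratio of Mir133b to Mir206 could not be formed from 0 reads.

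**Figure D3:**
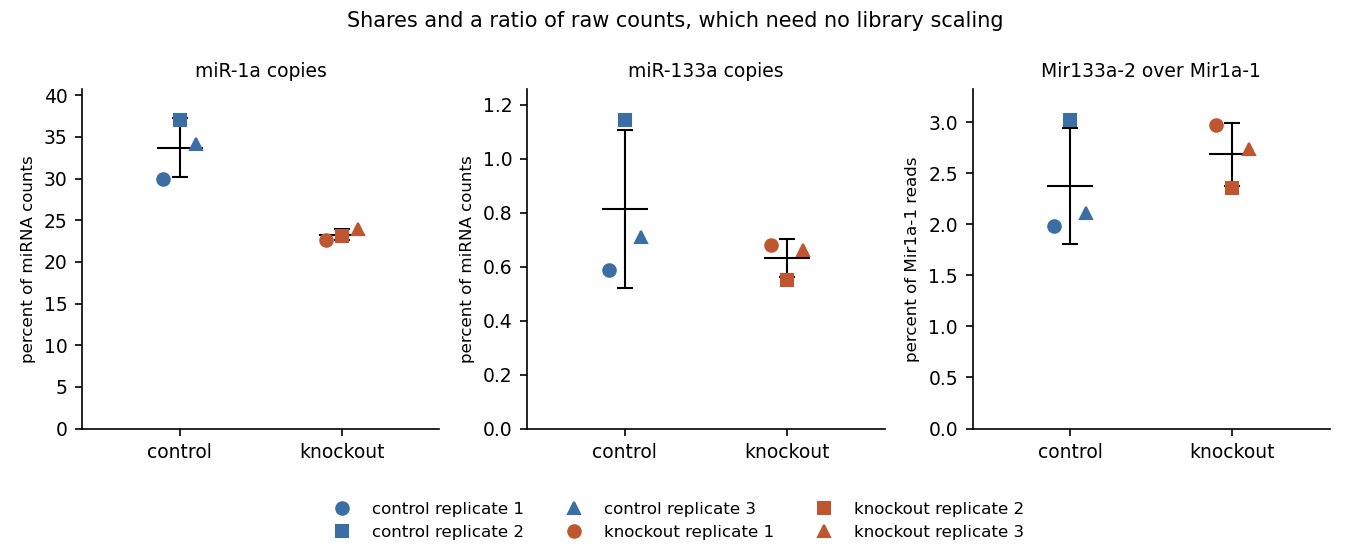
Percent of miRNA counts in the miR-1a copies (left) and the miR-133a copies (middle), and Mir133a-2 reads as a percent of Mir1a-1 reads (right), with y axes from 0, 1 point per library and bars for mean and SD (n = 3). The miR-1a shares of the knockout libraries (22.7% to 24.0%) lie below those of the controls (30.0% to 37.0%), and the other quantities overlap.

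The fold change of miR-1a moved with the scaling. Summed miR-1a had a log2 fold change of -0.94 with total counts alone, -0.76 with factors from miRNA genes (adjusted p = 0.00045 by edgeR) and -1.44 with factors from snoRNA and scaRNA genes. With factors from snRNA and rRNA genes it was -0.02 (adjusted p = 0.977 by edgeR). There summed miR-133a had 0.14, also not called. The median over all miRNA features tested moved with these scalings, from -0.63 to 0.75, and was 0.21 with TMM over all features. A scaling moves all features by nearly the same amount. In the difference from that median the scaling therefore nearly cancels by construction, and the narrow range is no sign of stability. The cancelling is not exact, since the summed values come from the refit with sums and the median from the fit with single genes. The difference was -0.81 to -0.77 for summed miR-1a and -0.66 to -0.61 for summed miR-133a. Leaving out control replicate 2 moved the relative value of miR-133a to -0.30, while that of miR-1a was -0.71. With factors from miRNA genes, miR-133a had an adjusted p of 0.0564 by edgeR.

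**Figure D4:**
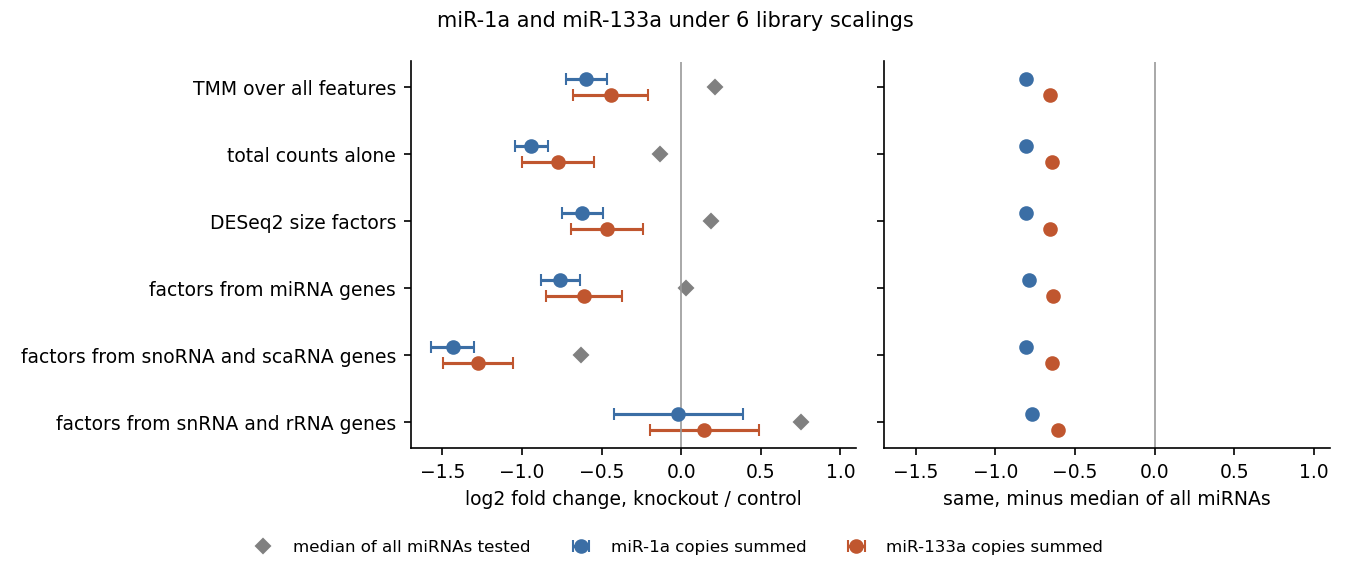
Left, log2 fold change (knockout over control) with SE of the summed miR-1a and miR-133a copies under 6 library scalings, with grey diamonds for the median of all miRNA features tested; right, the same values minus that median. The left values range from -1.44 to 0.14, and the right values, in which the scaling nearly cancels by construction, from -0.81 to -0.61.

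Among the 312 miRNA features tested, Mir1a-2 had the 20th lowest log2 fold change, Mir1a-1 the 25th, Mir133a-1 the 30th and Mir133a-2 the 31st. In level, Mir1a-2 and Mir1a-1 ranked 1 and 2 among miRNAs in control hearts and 3 and 2 in knockout hearts.

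**Figure D5:**
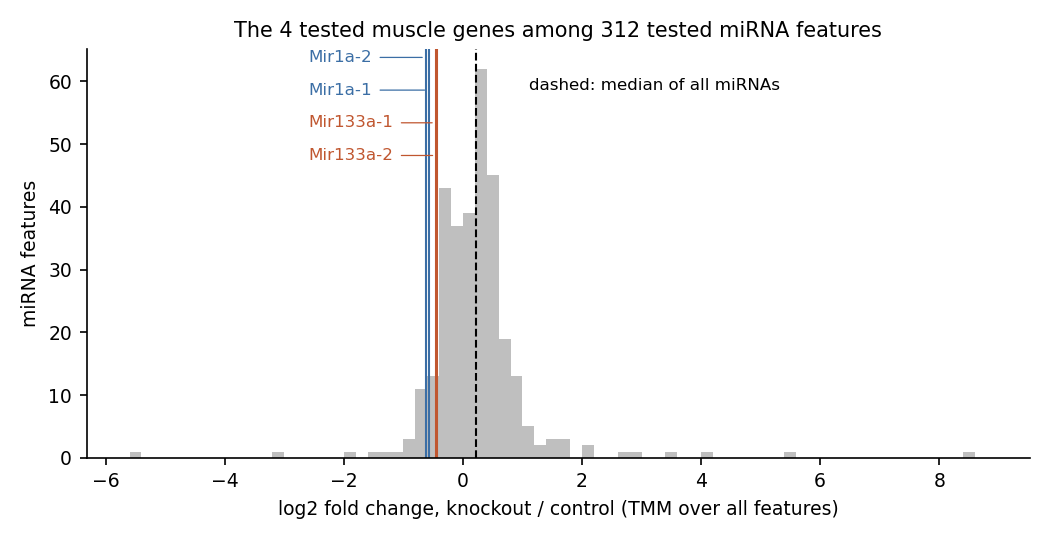
Histogram of log2 fold changes (x axis, knockout over control, TMM over all features) of the 312 miRNA features tested, with lines at the 4 tested muscle genes and a dashed line at the median of all miRNAs (0.21). All 4 lines, from -0.61 to -0.44, lie left of the median.

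The chromosome 1 pair had no reads. Mir206 and Mir133b stood at 0 in each of the 6 libraries, as did Gm28653, whose exons overlap them. A count of 0 allows up to 3 reads, or 0.185 to 0.222 CPM on total counts depending on the library, and this limits reads assigned to these features only. The hairpins are shown with the bases inside a Gm28653 exon in capitals; in Mir206 the first 13 of 73 bases lie outside, and in Mir133b all 119 lie inside.
Mir206 hairpin: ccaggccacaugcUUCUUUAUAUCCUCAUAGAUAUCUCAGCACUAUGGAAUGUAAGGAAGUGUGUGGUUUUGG
Mir133b hairpin: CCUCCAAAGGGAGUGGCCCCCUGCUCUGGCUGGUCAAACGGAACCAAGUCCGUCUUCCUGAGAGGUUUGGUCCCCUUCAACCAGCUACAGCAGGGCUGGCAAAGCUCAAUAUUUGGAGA
Of 164 miRNA features that overlap a same-strand exon of a gene in the tables, 128 (78.0%) were at 0 in every library. Of those that overlap no exon of another gene, 1003 of 1613 (62.2%) were at 0. Where the same-strand gene was not in the tables, 94 of 261 (36.0%) were at 0, and over all same-strand overlaps 222 of 425 (52.2%). Of the 164, 20 (12.2%) had enough reads to be tested, up to 654845 in all, against 13.9% of the 1613. The part of this overlap in the 0 counts of Mir206 and Mir133b was not tested, and the 0 counts are not given here as absence of the miRNAs from the heart.

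Mir1b had 1 read in control replicates 1 and 2 each and 0 in the other 4 libraries, and was not tested. Mir1a-2, which it covers on the opposite strand, had 4828878 reads. Reads that also align to Mir1a-1 may be among those of Mir1a-2, and the use of strand is not stated. The contrast with Mir1b therefore does not show the strand of origin. The host transcript Mir133a-1hg had 1, 3 and 2 reads in control and 0 in each knockout library, too few to be tested. Of the 6 host transcripts listed, it was the only 1 found by its listed name. The others (Mir1a-1hg, Mir133a-2hg, Mir133bhg, Linc-md1 and Mib1) were not analysed under these names. Counts of Gm28653, whose exons overlap Mir206 and Mir133b, are given above.

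Of 5 other muscle miRNAs listed, 4 were in the tables and tested: Mir208b rose and Mir486 fell, and the list's median log2 change was -0.35, beside -0.01 over all features and 0.21 over miRNAs. Mir486, found in muscle and red cells, fell, with means of 2161 ± 337 and 1362 ± 122 CPM (SD, n = 3) and a log2 change of -0.67 (SE 0.16; adjusted p = 0.00496 by edgeR). Its control libraries had 2141, 1834 and 2507 CPM and its knockout libraries 1328, 1261 and 1497 CPM, with no overlap. With snRNA and rRNA factors its value was -0.08 and not called.

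Mir208b, from the intron of the slow myosin gene Myh7, rose, with 12.2, 11.6 and 7.70 CPM in control and 11.6, 19.5 and 23.6 CPM in knockout hearts. Its log2 fold change of 0.79 (SE 0.29) had an adjusted p of 0.0399 by edgeR, and knockout replicate 1 lay within the control range. With snoRNA and scaRNA factors the value reversed to -0.05, and with factors from miRNA genes it was 0.60, neither called. Mir208a, from Myh6, had 53.2, 61.8 and 51.2 against 39.8, 46.1 and 44.0 CPM (log2 fold change -0.35, adjusted p = 0.128 by edgeR). Mir499, from Myh7b, had 1317, 1243 and 988 against 833, 998 and 964 CPM (log2 fold change -0.34, adjusted p = 0.108 by edgeR). With snRNA and rRNA factors these 2 had 0.20 and 0.19, and with factors from miRNA genes -0.54 and -0.52, both then called lower (adjusted p = 0.0462 and 0.0226 by edgeR).

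Whole hearts were read, so fewer cardiomyocytes and less miRNA per cardiomyocyte cannot be told apart. The summed cardiomyocyte list (3 of 3 tested) was 1046 to 1382 CPM in control and 884 to 1063 CPM in knockout libraries. Of 5 fibroblast miRNAs listed, 3 were tested and all 3 rose (median 0.79), with sums of 4338 to 4735 CPM against 9879 to 12660 CPM. The most abundant of them, Mir21a, had 3137 ± 42.7 against 9356 ± 1470 CPM (SD, n = 3), while Mir199a-2 and Mir214 were at 0 in all libraries. Mir21a was higher and called under each of the 6 scalings (log2 fold change 0.73 to 2.10), whereas Mir199a-1 and Mir199b had -0.05 and -0.09 with snoRNA and scaRNA factors.

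Smooth muscle (2 tested, 0 called, 26644 to 33554 against 22066 to 30027 CPM, most abundant Mir143) and endothelial miRNAs (1 tested, 0 called, 19511 to 23749 against 17614 to 20966 CPM, with Mir126a tested and Mir126b at 0) overlapped between the groups. With factors from miRNA genes Mir143 (-0.39, adjusted p = 0.0375 by edgeR) and Mir126a (-0.31, adjusted p = 0.0445 by edgeR) were called lower, as were Mir208a and Mir499. With total counts alone Mir143 and Mir126a were also called lower (-0.55 and -0.48), and with snRNA and rRNA factors they had 0.35 and 0.42, not called. Red cell miRNAs had 1 of 3 higher (Mir144, 0.85, but -0.0051 with snoRNA and scaRNA factors) and 1 lower (Mir486). The other 1, Mir451a, had 804 ± 322 against 1063 ± 258 CPM (SD, n = 3) and was not called (0.40, adjusted p = 0.258 by edgeR). With snoRNA and scaRNA factors Mir451a had -0.45, also not called. The red cell sums were 2643 to 3692 against 2204 to 2920 CPM, the most abundant being Mir486, which is also in the muscle list. Of 2 leukocyte miRNAs tested, Mir150 fell (-0.59, and -0.06 with snRNA and rRNA factors) and Mir142, the more abundant, was not called (adjusted p = 0.0751 by edgeR); the sums were 125 to 156 against 159 to 193 CPM, with Mir155 and Mir223 at 0. Of neuron miRNAs, 2 of 6 were tested and 0 called, with sums of 40.7 to 49.8 against 33.8 to 46.7 CPM; these were Mir9-1 and Mir9-3, at nearly equal levels, and Mir124a-1 and Mir9-2 were at 0. A listed marker gene at 0, here or among the fibroblast miRNAs, limits reads assigned to that feature only and is not given as absence of its miRNA. The part of these cell types in the miR-1a values was not tested.

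The features whose log2 CPM followed summed miR-1a most closely over the 6 libraries were Mir208a (Pearson r 0.98), the mature glutamine tRNA feature Gln-TTG-1 (r 0.969) and the long non-coding RNA Tug1 (r 0.965). Mir208a also had its highest level in control replicate 2 and its lowest in knockout replicate 1. For summed miR-133a they were Mir345 (r 0.946), Snhg4 (r 0.914) and Mir181c (r 0.87). These were picked as the highest of the features tested, and the correlations share the group difference and the library scaling, so they are a description of 6 points.

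In the authors' deposited table, which uses DESeq2, the log2 fold changes were -0.53 for Mir1a-1 (adjusted p = 0.0289) and -0.57 for Mir1a-2 (adjusted p = 0.0136). The authors' deposited table also gives -0.40 for Mir133a-1 (adjusted p = 0.219) and -0.40 for Mir133a-2 (adjusted p = 0.224), and lists Mir133b and Mir206 at 0.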

How the data were processed

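The submitters' processing notes name mm10, DESeq2 1.16.1, featureCounts 1.5.1, Bowtie2 2.2.9 and cutadapt 1.14, with no roles. No source used here gives the annotation, the use of strand, how multiply aligned reads were counted, or how technical replicates were merged. The authors deposited raw counts per feature, the input of every test here. They also deposited normalized counts, a signal that came from the raw counts by 1 constant factor in each library, which was checked from the values and not tested. The authors' deposited comparison gives log2 fold changes, p-values and a Wald score.

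Features were filtered with edgeR's filterByExpr (minimum count 10, minimum total 15), leaving 1144 features with 99.9% of the counts in the library that lost most. Libraries were scaled by TMM, with factors of 1.09 to 1.15 in control and 0.828 to 0.949 in knockout libraries, so the factors differed by group. The groups were compared by edgeR's quasi-likelihood test (glmQLFit, glmQLFTest, edgeR 4.0.16 in R 4.3.3) without covariates. P-values were adjusted by Benjamini-Hochberg over all features and called under 0.05. A standard error is the log2 fold change divided by the root of the F statistic. Summed copies came from a refit of the whole table, and DESeq2 1.42.0 was an alternative. Shares and ratios used exact permutation tests; the ratio of Mir133b to Mir206 could not be formed, so 4 ratios were adjusted in place of 5. Log2 CPM for correlations used a prior count of 2. On simulated data of 1144 features made for this comparison, 71.0% of features changed by 1 on the log2 scale and 93.5% of those changed by 2 were recovered, with 9 false calls. All simulated features had 1 common dispersion, and changes went at random in either direction. Changes as small as those of the tested members, and a shift from library scaling, were not simulated.

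Other library scalings, no filter on low counts, a replicate block and the omission of each library were tried as alternatives. Values relative to the median of all miRNAs, and the listed genes under each scaling, were added after seeing the data. There were 0 columns of other samples. No library was a copy of another (chi-square over degrees of freedom 98.2 or more in each pair). Named genes are the 7 members, the listed muscle miRNAs and host transcripts, the most abundant tested gene of each cell type list (both Mir9 genes for neurons), and the 3 features most correlated with each summed family. Marker genes at 0 or called, Mir451a and Gm28653 are named outside that rule, after their values were seen. The members and lists were chosen with earlier results of these data known.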

Additional observations from a re-analysis of the deposited data

How the results depend on the processing

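Of 1144 features 574 were called, against 1141 of 9254 without a filter on low counts and 886 of 2616 by DESeq2; leaving out single libraries gave 486 (of 1168) to 908 (of 1410). Of the 7 genes 2 were called, but 4 with total counts alone, 4 with factors from snoRNA and scaRNA genes, 0 with factors from snRNA and rRNA genes, 0 without a filter, and 0 to 4 with 1 library left out. The share of higher calls over all features was 46.2% with TMM, 28.2% with total counts, 34.8% with miRNA, 13.3% with snoRNA and scaRNA and 64.6% with snRNA and rRNA factors, and the median log2 fold change moved by -0.34, -0.18, -0.84 and 0.55. With snRNA and rRNA factors log2 fold changes were 0.0011 (Mir1a-1), -0.038 (Mir1a-2), 0.14 (Mir133a-1), 0.15 (Mir133a-2), -0.018 (summed miR-1a) and 0.14 (summed miR-133a), none called. Without a filter the calls of Mir1a-1 (-0.21), Mir1a-2 (-0.25) and summed miR-1a (-0.23) were lost, where the median over all features moved by 0.36. Mir133a-1, Mir133a-2 and their sum became called with total counts (-0.78, -0.77 and -0.78) and with snoRNA and scaRNA factors (-1.28, -1.27 and -1.28). Of the listed miRNAs, Mir208a (0.20), Mir499 (0.19), Mir143 (0.35) and Mir126a (0.42) reversed with snRNA and rRNA factors, and Mir208b (-0.048), Mir144 (-0.0051), Mir199a-1 (-0.049) and Mir199b (-0.094) with snoRNA and scaRNA factors, none called. With 1 library left out the ranges were -0.66 to -0.24 (Mir1a-1), -0.68 to -0.28 (Mir1a-2), -0.61 to -0.11 (Mir133a-1), -0.60 to -0.11 (Mir133a-2), -0.67 to -0.25 (summed miR-1a) and -0.61 to -0.11 (summed miR-133a). The difference in share of the 7 genes was -10.7 percentage points of miRNA counts (-12.6 to -8.82 with 1 library left out), -6.85 of all counts and -21.7 as a percent of all other miRNA counts, denominators of different size. With 1 library left out the log2 differences in ratio were 0.08 to 0.38 (Mir133a-2 to Mir1a-1), 0.11 to 0.46 (Mir133a-1 to Mir1a-2), -0.071 to -0.024 (Mir1a-2 to Mir1a-1) and -0.0093 to 0.0010 (Mir133a-1 to Mir133a-2), each within 1 control SD of the value over all libraries, though 3 of them moved by more than 1 knockout SD. The titles state no pairing of same-numbered libraries. Deviations of pairs 1 to 3 had correlations of -0.134, -0.0163 and -0.192, which cannot settle a pairing with 3 libraries per group. With the number as a replicate block 536 features were called, summed miR-1a had -0.60 (adjusted p = 5.03e-05 by edgeR) and summed miR-133a -0.38 (0.147), with 2 of the 7 genes called. With 3 mice per group, an exact test cannot go below p = 0.1.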

Other observations

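The authors' deposited table of their comparison lists 270 features at a mean of 0, 128 of them miRNAs, that hold reads in the deposited counts of the same libraries. None of the 7 muscle genes is among these 270, and the endothelial Mir126a is. For the remaining features with a mean normalized count above 10, the median ratio of the mean in the authors' deposited table to the mean of the deposited normalized counts was 1.002. Mir133c, a gene on chromosome 2 (29475215 to 29475294, minus strand) that bears the family's name but is not a member, had 1 read in control replicate 1 and 0 in the other 5 libraries.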
